A study of Bos taurus and Sus scrofa with 6 samples.

Results

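In droplet-based single-cell RNA-sequencing, most droplets hold no cell but still capture RNA that floats free in the cell suspension. The free RNA of 3 prepubertal cattle testis libraries was compared with the RNA of the cells of the same libraries, to show which genes and cell types feed it. In each library, unique molecular identifier (UMI) counts were summed over the droplets with 1 to 50 UMIs, taken as empty, and over the droplets called as cells, which had at least 460, 972 and 2644 UMIs in cattle 1, 2 and 3. Each barcode with a UMI was counted as a droplet, and whether barcodes with few UMIs mark a real droplet was not tested. Of 739388 droplets so counted, 594497 were taken as empty and 18504 were cells. The 6 sums (3 of each kind) were the data points of every comparison. The testes came from Holstein cattle aged 4.5 months and were collected by castration. Live total testicular cells were loaded, libraries were made with v2 chemistry, and libraries were pooled on 1 sequencing lane. The 3 libraries carry the tags B6, H11 and H12, and the labels give the same testis number to H11 and H12. The methods, in contrast, state that the tissue came from 3 different male cattle, and the libraries were treated as 3 animals.

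Leydig cells lie between the seminiferous tubules and make androgens. They also secrete insulin-like factor 3, the product of INSL3, which drives the first phase of testicular descent. Testicular macrophages lie beside them and carry complement and scavenger genes. Sertoli cells line the tubules around the germ cells, and contractile peritubular myoid cells and fibroblast-like stromal cells surround them. RNA is set free when cells break or leak while the tissue is digested, and droplets can take it up with or without a cell.

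The libraries differed in depth and in the shape of their empty droplets. Cattle 1, 2 and 3 held 5805223, 27409347 and 53325608 UMIs, of which empty droplets held 17.5, 5.99 and 1.56% and cells 59.9, 67.3 and 66.2%. The remaining 22.6, 26.8 and 32.2% lay in 6930, 47307 and 72150 droplets with more than 50 UMIs that were not called. Above 5 UMIs, the most common total was 12 UMIs in cattle 1, 54 in cattle 2 and 85 in cattle 3. The window of 1 to 50 UMIs thus held the main peak in cattle 1, cut it in cattle 2 and left it out in cattle 3. Cattle 2 and 3 also had a smaller peak at lower totals, which lay mostly inside the window. Droplets with 1 to 4 UMIs made up 34.4, 79.1 and 95.4% of the empty droplets and 4.79, 12.8 and 47.5% of the empty UMIs. The results were therefore also computed on droplets within 2-fold of the most common total, a setting chosen after these totals were seen. Few cell barcodes were shared between libraries (45 for cattle 1 and 2, 23 for cattle 1 and 3 and 71 for cattle 2 and 3), against 42.1, 29.8 and 73.7 for independent draws.

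**Figure D1:**
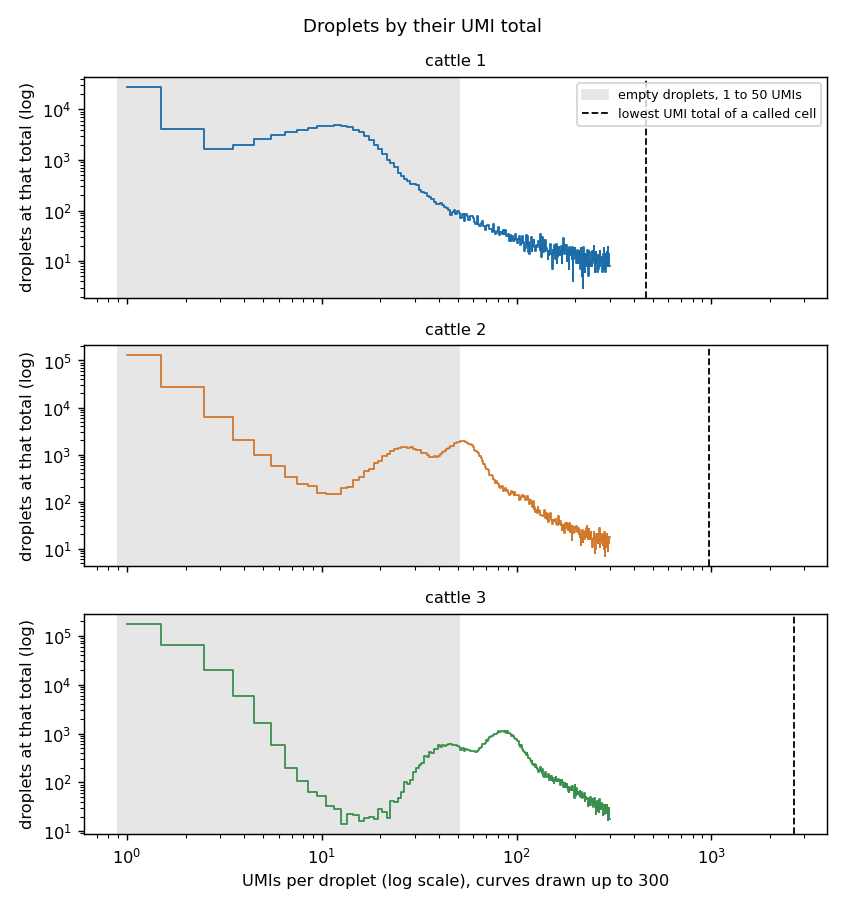
Number of droplets at each UMI total in cattle 1, 2 and 3 (both axes logarithmic, curves drawn up to 300 UMIs). The grey band marks the 1 to 50 UMIs of the empty droplets and the dashed line the lowest total of a called cell: 460, 972 and 2644 UMIs. The peak at 12 UMIs in cattle 1 lies inside the band, and the peaks at 54 and 85 UMIs in cattle 2 and 3 lie at its edge and beyond it.

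The Leydig hormone transcript INSL3 led the free RNA. It took 11.13% of empty-droplet UMIs in cattle 1, 2.45% in cattle 2 and 1.74% in cattle 3, against 4.74, 0.525 and 0.7504% of the UMIs in cells. Every empty sum was above the cell sum of its own library, and cattle 1 was far above the other libraries on both sides. Counting error was small beside these gaps, with a 95% Wilson interval of 1.71 to 1.77% for the empty sum of cattle 3. These intervals cover counting error only. The empty share of INSL3 was 2.35, 4.67 and 2.32 times its cell share in cattle 1, 2 and 3. INSL3 rose by 1.62 ± 0.12 (SE) on the log2 scale in empty droplets (edgeR's quasi-likelihood test with the library as block, Benjamini-Hochberg adjusted p = 9.59e-39, higher in 3 of 3 libraries). This SE and p, like those below, draw on variance estimated with all tested genes. They do not measure the spread of a gene over the libraries. On the log2 scale, GSTA3, a glutathione transferase that also isomerises steroid precursors, rose by 1.73 ± 0.12. Its levels were 25480, 8314 and 4610 CPM (the UMIs of a gene over all UMIs of the same sum, on the usual CPM scale) in empty droplets and 10268, 1694 and 1768 CPM in cells. INSL3 ranked 1 among all transcripts in the empty sum of every library, whereas GSTA3 ranked 2 in cattle 1, 11 in cattle 2 and 40 in cattle 3. Within 2-fold of the most common total, INSL3 measured 120930, 27701 and 28002 CPM, against 47434, 5251 and 7504 CPM in cells.

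Over all genes, 14361 were tested, 508 (3.54%) were higher and 1069 (7.44%) lower in empty droplets at an adjusted p under 0.05, and 3084 had an unadjusted p under 0.05. The direction was the same in all 3 libraries for 442 of the higher and 1050 of the lower genes. The median log2 change of all tested genes was -0.18. This median includes 1028 genes without a UMI in the empty sums. Among genes with at least 10 counts over the 3 empty sums it was 0.0006. The split between higher and lower depended on the scaling: 337 and 1241 with library size alone (median -0.24), 801 and 799 with RLE size factors (median -0.08) and 402 and 285 with DESeq2 (median -0.06). Without cattle 2, 116 genes were higher and 205 lower, and without cattle 1 or cattle 3 the lower genes were 671 or 698. With the library left out of the model, no gene passed in either direction (960 had an unadjusted p under 0.05). Each group of genes is given by its counts, to be set beside the 3.54 and 7.44% of all genes.

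Of the 10 largest rises, the leading class among called cells was Leydig-like for 4 genes and macrophage-like for 6, by mean CPM over the libraries. Classes were named from marker genes in clusters of the called cells. The B and plasma-like class was left out of this ranking. Leading classes were not counted over all genes, so these counts have no background. The Leydig-like genes were INSL3, GSTA3, RGN (regucalcin, a calcium-binding protein) and MSMB (microseminoprotein beta, a secreted protein). RGN measured 464, 167 and 77.1 CPM in empty droplets against 140, 29.0 and 38.9 CPM in cells. Among genes with at least 30 UMIs and a mean of 20 CPM in the higher group and 1 direction in all libraries, MSMB had the largest fitted rise, 2.46 ± 0.25 on the log2 scale (adjusted p = 2.31e-20), from 14.1, 2.28 and 3.91 CPM in cells to 93.6, 13.4 and 9.63 CPM. In cattle 1, the MSMB level of the empty droplets was above the 41.9 CPM of the Leydig-like cells themselves, whereas in cattle 2 and 3 it was below them (37.3 and 39.7 CPM). RGN behaved alike: the Leydig-like cells held 374, 290 and 459 CPM, less than the empty droplets in cattle 1 only.

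The macrophage-like genes among the largest rises were AIF1 (the macrophage marker IBA1), FOLR2 (a folate receptor of resident macrophages), FCNB (ficolin B, a lectin of the complement system), TIMD4 (a receptor for dying cells), ANG (the ribonuclease angiogenin) and its relative ANG2. AIF1 measured 263, 122 and 138 CPM in empty droplets and 43.7, 48.1 and 61.1 CPM in cells. All empty sums of AIF1 lay above all cell sums, and the gene rose by 1.75 ± 0.14 on the log2 scale (adjusted p = 2.7e-31). FOLR2 behaved alike, with 166, 53.6 and 73.4 CPM against 30.2, 21.8 and 31.0 CPM. ANG measured 718, 530 and 117 CPM in empty droplets against 194, 82.0 and 69.4 CPM in cells, and it was also found in the Leydig-like class. ANG and ANG2 are close paralogs, so reads may be split between them. The macrophage-like level of ANG2 rested on cattle 3 (238 CPM, against 11.4 and 11.97 CPM in cattle 1 and 2). In cattle 1 and 2, another class held more ANG2. The macrophage-like level of ANG was 375, 501 and 1230 CPM, below the empty sums of cattle 1 and 2. In at least 1 of these libraries another class held more ANG. Paralogy also limits GSTA3, whose symbol is carried by a second locus with few UMIs, and GSTA2.

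**Figure D2:**
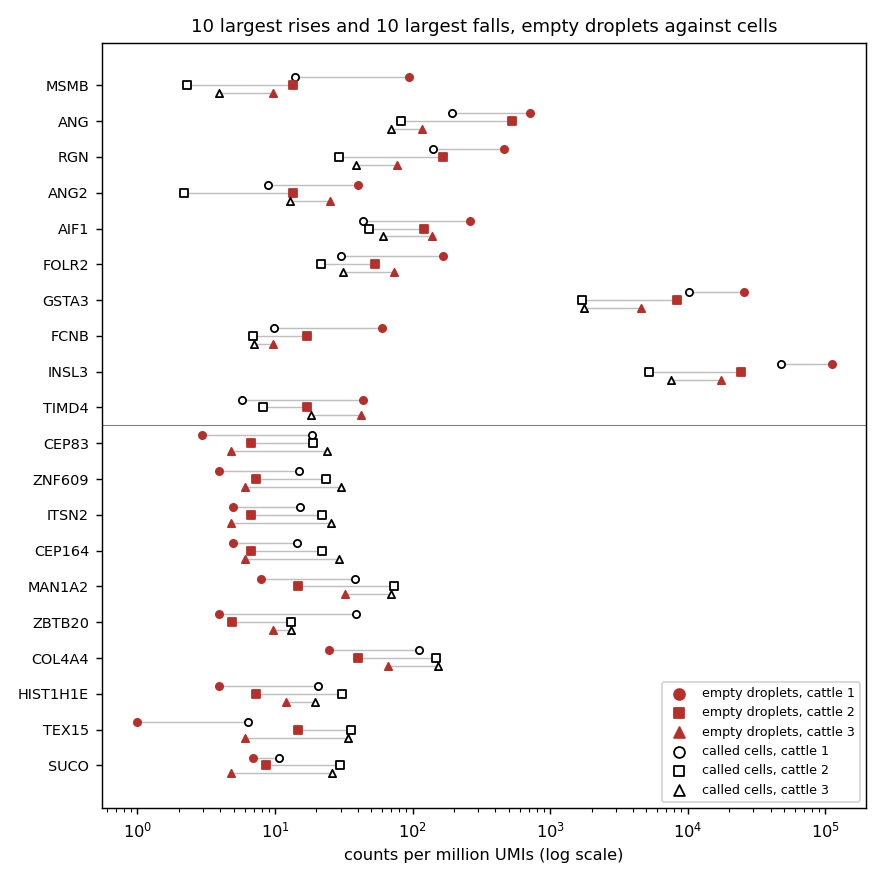
Level of the 10 genes with the largest rise (above the line) and the 10 with the largest fall in empty droplets, in CPM on a logarithmic axis. Filled symbols are empty droplets and open symbols called cells, with one shape per library and a grey line joining the pair of each library. For INSL3 the filled symbols lie at 111273, 24508 and 17398 and the open ones at 47434, 5251 and 7504.

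Several genes of steroid synthesis in the Leydig list rose as INSL3 did. Of 16 members tested, 8 rose, INSL3 itself and a receptor gene among them. None fell and 8 passed in neither direction, with a median log2 change of 0.55. STAR, which brings cholesterol into mitochondria, measured 1120, 1308 and 297 CPM in empty droplets against 534, 484 and 141 CPM in cells (log2 change 1.27 ± 0.13, adjusted p = 7.07e-21). CYP17A1, the enzyme that forms androgen precursors, measured 1630, 831 and 397 CPM against 964, 296 and 268 CPM (1.02 ± 0.13, adjusted p = 2.19e-13). GSTA2, a paralog of GSTA3, rose by 0.92 ± 0.14. HSD3B, CYP11A1, FDXR and the luteinising hormone receptor LHCGR also passed the test. LHCGR was the exception across libraries: it was higher in the empty droplets of cattle 1 and 2 (46.3 and 19.5 against 17.5 and 7.27 CPM) but not of cattle 3 (7.22 against 8.64 CPM). Without cattle 2, 5 members passed and LHCGR did not (adjusted p = 0.083). As a whole the list took 11.6, 2.76 and 1.86% of empty UMIs against 5.01, 0.677 and 0.846% in cells. INSL3 made up 95.98, 88.9 and 93.3% of these empty UMIs. The other 15 members took 0.466, 0.306 and 0.125% of empty UMIs against 0.272, 0.152 and 0.0956% in cells, or 1.72, 2.02 and 1.31 times as much. A separate list for steroid synthesis, which shares INSL3 and most of its steroid enzymes with it, had 6 of 13 tested members higher and none lower. TSPO, the outer mitochondrial translocator protein of that list, measured 130, 142 and 140 CPM against 156, 118 and 127 CPM and did not pass the test (adjusted p = 0.676).

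The macrophage list was the other group of cell markers with many rises. Of 16 tested members, 7 rose and none fell, and the median log2 change was 0.65. The 3 chains of complement C1q moved together. C1QA measured 1341, 695 and 775 CPM in empty droplets and 272, 333 and 374 CPM in cells, with no overlap between the groups (1.53 ± 0.13, adjusted p = 1.38e-29). C1QB rose by 1.55 ± 0.13 and C1QC by 1.49 ± 0.13. The signalling adaptors TYROBP and FCER1G and the lysosomal protein CD68 also rose. CTSS, a lysosomal protease that other immune cells also make, measured 141, 189 and 285 CPM against 124, 197 and 287 CPM and did not pass (adjusted p = 0.762). In sum, the list took 0.454, 0.221 and 0.283% of empty UMIs, against 0.108, 0.129 and 0.163% in cells. Uncalled droplets with more than 200 UMIs entered neither sum. The list took 0.485, 0.586 and 0.593% of their UMIs, more than in either sum of the same library. This was not particular to macrophage genes. The lymphocyte list took 1.14, 0.510 and 0.314% of the UMIs of these droplets, also more than in either sum. The number of macrophage members that rose stayed at 7 without any 1 of the 3 libraries.

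The Sertoli list was split. Of 17 tested members, 4 rose and 4 fell. The rises and falls were 2 and 2 without cattle 1, 2 and 1 without cattle 2, and 3 and 1 with DESeq2. Transferrin (TF), an iron carrier, measured 412, 92.6 and 79.5 CPM in empty droplets against 180, 40.5 and 54.2 CPM in cells (1.095 ± 0.14, adjusted p = 3.98e-12). INHA, the inhibin alpha subunit, rose by 0.35 ± 0.12 (adjusted p = 0.036), and CITED1 and NR0B1 were the other rises. WT1, GATA4, KRT18 and CLDN11 fell. Not all of these genes were particular to Sertoli-like cells. TF was among the 10 leading genes of Leydig-like clusters and KRT18 among those of a myoid and stromal-like cluster. WT1 rested on 1 UMI in the empty droplets of cattle 3 and none in those of cattle 1 and 2. AARD, a Sertoli-enriched gene, measured 102, 161 and 118 CPM in empty droplets and 120, 213 and 151 CPM in cells and did not pass (adjusted p = 0.241). The follicle-stimulating hormone receptor FSHR was at 28.6, 46.9 and 27.7 CPM against 18.4, 41.9 and 23.1 CPM, higher in 3 of 3 libraries without passing the test (adjusted p = 0.231).

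Myoid and stromal genes were depleted from the free RNA. Of 20 members tested, 10 fell and none rose (median log2 change -0.48). ACTA2, the smooth muscle actin of myoid cells, measured 782, 808 and 1646 CPM in empty droplets against 1751, 1442 and 2265 CPM in cells (-0.75 ± 0.12, adjusted p = 1.16e-07). DCN, the stromal proteoglycan decorin, measured 628, 1442 and 1498 CPM against 1075, 2378 and 1775 CPM (-0.51 ± 0.12). TCF21, a transcription factor of interstitial stroma, was at 177, 246 and 314 CPM against 237, 275 and 354 CPM, lower in 3 of 3 libraries but short of the threshold (adjusted p = 0.501). The extracellular matrix list, which shares collagens and DCN with the former, had 17 of 31 members lower, none higher and a median of -0.66. COL1A1 measured 158, 261 and 378 CPM in empty droplets and 509, 588 and 543 CPM in cells, with no overlap (-1.04 ± 0.13, adjusted p = 1.01e-12). MGP, a secreted matrix protein, did not follow the collagens (5679, 7100 and 6960 against 4752, 6894 and 7023 CPM, adjusted p = 0.467). Without cattle 2, 6 myoid and stromal and 8 matrix members fell, and with DESeq2 11 matrix members fell. In droplets with 1 to 10 UMIs, 2 and 3 members of these lists fell, and 2 Leydig and 5 macrophage members rose.

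Germ cell, lymphocyte and endothelial lists held few calls. Of 16 germ cell members, DAZL, an RNA-binding protein, and ZBTB16, a spermatogonial repressor, fell and none rose. With DESeq2 or without cattle 2 no germ cell member passed, and 1 passed without cattle 1 or cattle 3. Within 2-fold of the most common total, 2 germ cell members rose and 3 fell, and with 1 to 100 UMIs 2 rose and 2 fell. In both of these settings more of all genes passed in each direction than in the main window. DDX4, a germ cell RNA helicase, was close to the limit of detection: 2.96, 7.31 and 2.41 CPM in empty droplets, where 3 UMIs would give 2.96, 1.83 and 3.61 CPM. Its level in cells was 3.74, 5.91 and 10.8 CPM, so a difference was not detectable at this depth (adjusted p = 0.662). Of 18 lymphocyte members, CD52, a surface glycoprotein, rose (969, 1357 and 997 against 775, 780 and 876 CPM, adjusted p = 0.0009) and none fell. The chemokine CCL5 measured 469, 852 and 477 CPM against 643, 688 and 531 CPM and showed no common direction. Uncalled droplets with more than 200 UMIs, in which the lymphocyte list took a larger share than in either sum, entered neither. Of 11 endothelial members, RAMP2, a receptor partner for adrenomedullin, fell, as did the keratin KRT8 among 10 members for rete and epididymal epithelium. Without cattle 2, neither the lymphocyte list nor the epithelial list held a call, and without cattle 1 the endothelial list held none. With DESeq2, the endothelial and epithelial lists held none. None of the neutrophil, platelet, mast cell and B and plasma cell members passed, and each of these lists took at most 0.00847% of empty UMIs.

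**Figure D3:**
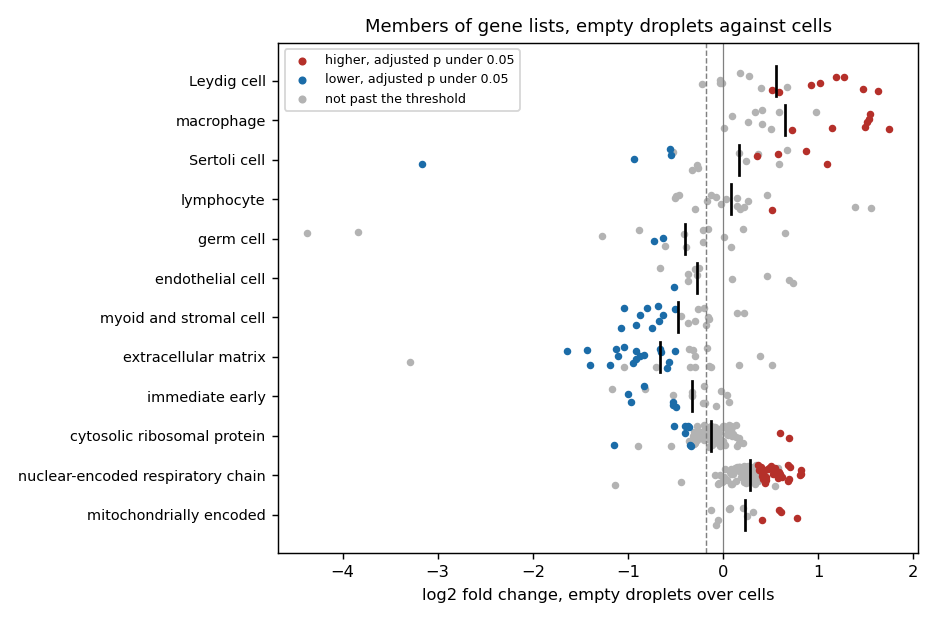
Log2 fold change of each tested member of 12 gene lists, empty droplets over cells. Red points were higher and blue points lower at an adjusted p under 0.05, grey points did not pass, the black bar is the median of the list and the dashed line the median of all genes (-0.18). Called Leydig and macrophage members lie to the right of 0 and called myoid, stromal and matrix members to the left.

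To estimate how much each cell class gave to the free RNA, the empty sum of each library was fitted as a mixture of class profiles. These were the profiles of its own 8 cell classes, without mitochondrial and red blood cell genes. The profiles hold free RNA themselves, and no fit left out INSL3, so the shares are rough estimates. The Leydig-like class accounted for 56.8, 19.5 and 13.3% of the free RNA of cattle 1, 2 and 3, whereas it gave 29.8, 5.01 and 5.99% of the UMIs in cells. The mean difference was 16.2 ± 9.99 percentage points (SD, n = 3). It was 24.1 points with non-negative least squares and 9.87 points in droplets with 1 to 10 UMIs, where cattle 2 and 3 differed by 2.21 and 1.90 points. Within 2-fold of the most common total the Leydig-like share was 60.7, 21.6 and 20.7%, with a mean difference of 20.7 points. The macrophage-like class gave 7.73, 5.27 and 6.51% against 2.65, 3.06 and 3.42%, a difference of 3.46 ± 1.47 points. This class held a cluster of 58 cells from cattle 2 and 3 that carried the muscle genes TAGLN and ACTA2 beside C1q among its leading genes, and a cluster of 151 cells led by MHC class II genes with LYZ as the only macrophage marker among its 10 leading genes. At a clustering resolution of 0.5 the former left the class, whose free share was then 4.65 and 5.80% in cattle 2 and 3 and whose difference was 3.29 ± 1.59 points. With non-negative least squares the difference was 5.05 points. Both classes were above their share of cell RNA in 3 of 3 libraries. With 3 pairs, the exact two-sided permutation test cannot go below p = 0.25, which both reached.

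The myoid and stromal-like class, the main source of cell RNA, lost the most in percentage points. It gave 8.33, 25.8 and 34.1% of the free RNA against 31.7, 39.6 and 42.3% of cell UMIs (mean difference -15.1 ± 7.65 points). The germ-like class gave 3.59, 5.37 and 7.36% against 8.78, 7.88 and 11.4% (-3.91 ± 1.34 points). With non-negative least squares the germ-like shares were 0, 0 and 6.37% and the difference -7.23 points, and the myoid and stromal-like share of cattle 1 was 0%. In droplets with 1 to 10 UMIs the germ-like difference was -2.60 points and the myoid and stromal-like difference -9.36 points. The lymphocyte-like class gave 2.55, 7.16 and 7.88% against 7.07, 7.43 and 8.99%, also lower in 3 of 3 libraries, with a mean difference of -1.96 ± 2.25 points that was smaller than its spread. That difference depended on the fit: it was -7.31 points with non-negative least squares, -0.69 without cattle 1, -0.41 in droplets with 1 to 10 UMIs (1 of 3 libraries higher) and -0.34 without ribosomal genes (2 of 3 higher). The Sertoli-like class gave 20.7, 36.1 and 30.1% against 19.4, 36.0 and 27.1%, a difference of 1.43 ± 1.46 points that was no larger than its spread. The endothelial-like class and the B and plasma-like class, which had 21 cells, gave under 1% each. Each p was 0.25 or higher, the limit of the design. On each side the class shares add up to the whole, so a gain of the Leydig-like class lowers the shares of the others. The lower shares and the small Sertoli-like difference are therefore not separate from that gain. Shares among the other classes alone were not tested.

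**Figure D4:**
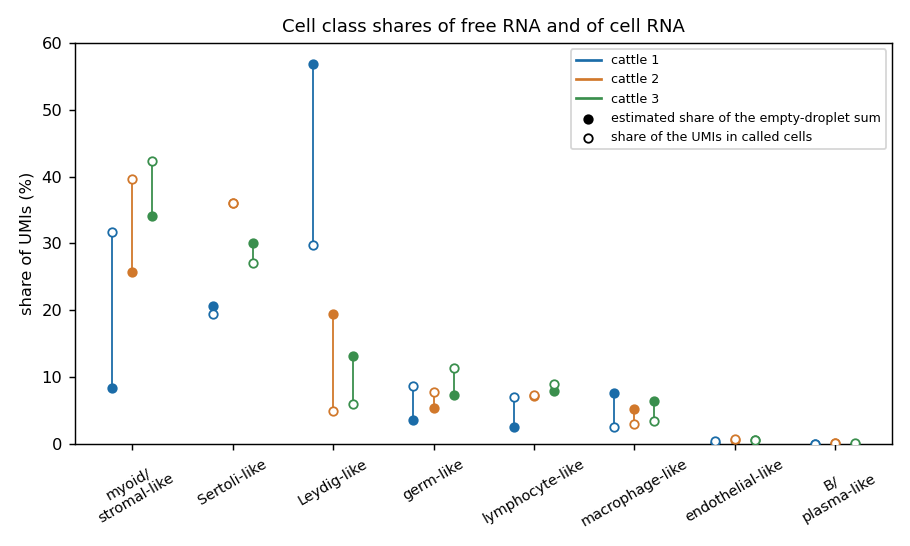
Share of UMIs (%) of each cell class. Filled points are the estimated share of the empty-droplet sum and open points the share of UMIs in called cells, joined for each library. The filled points of the Leydig-like class lie above the open ones (56.8, 19.5 and 13.3 against 29.8, 5.01 and 5.99%) and those of the myoid and stromal-like class below them.

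The mixture did not give the levels of single genes. Across genes with at least 10 UMIs, its log2 levels correlated with the observed ones at r = 0.951, 0.962 and 0.972, against 0.944, 0.962 and 0.969 for the plain cell sum. These are descriptions across genes, which are not independent replicates. To match the observed sums, 14.1, 9.74 and 6.94% of the UMIs of the mixture would have to move between genes. For the plain cell sum these shares were 17.7, 10.7 and 7.77%. AIF1 was observed at 2.55, 1.68 and 1.39 times the level of the mixture and GSTA3 at 1.41, 2.20 and 1.49 times. INSL3 was at 1.29, 1.31 and 1.17 times. At the other end, ZNF609 was at 0.238, 0.319 and 0.208 times and COL4A4 at 0.322, 0.337 and 0.4997 times. These genes entered the fit, so the ratios are not an independent check.

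The 10 largest falls had other leading classes. By mean CPM over the libraries, germ-like cells held the highest level of 7 of them (CEP83, CEP164, ZNF609, ITSN2, MAN1A2, HIST1H1E and TEX15). Sertoli-like cells led for ZBTB20 and SUCO, and myoid and stromal-like cells for COL4A4, a basement membrane collagen chain. Here too, leading classes were not counted over all genes. CEP83, a centriole protein of cilium formation, measured 2.96, 6.70 and 4.82 CPM in empty droplets and 18.7, 18.8 and 23.9 CPM in cells. Within the same limits on UMIs, CPM and direction it had the largest fitted fall, -1.90 ± 0.31 on the log2 scale (adjusted p = 1.71e-07). For falls, the limits on UMIs and CPM applied to the cell sums, where these genes are higher. The empty sums held only 3, 11 and 4 UMIs of CEP83, and 3 UMIs is the limit of detection. They held 4, 12 and 5 UMIs of ZNF609, 5, 11 and 4 of ITSN2 and 5, 11 and 5 of CEP164. The sizes of these falls are therefore uncertain. ZNF609, a zinc finger protein, measured 3.94, 7.31 and 6.02 CPM against 14.9, 23.7 and 29.96 CPM. In germ-like cells, however, ZNF609 was only slightly above the next class (35.3 against 31.6 CPM on average). The same held for CEP164, an appendage protein of centrioles (30.6 against 26.8 CPM), and for MAN1A2 (117 against 102 CPM), and ITSN2 was at 53.0 against 42.3 CPM. MAN1A2, a Golgi mannosidase, had 7.88, 14.6 and 32.5 CPM in empty droplets and 38.2, 72.9 and 69.5 CPM in cells. For all 10 genes but TEX15, among them ITSN2 (an endocytic scaffold protein), the empty sums lay below all cell sums. The genes were picked for a large fall in every library, which favours such a gap, and the gap was not counted over all genes. ZBTB20, a transcriptional repressor, rested on cattle 1, where it was at 3.94 CPM in empty droplets and 39.1 CPM in cells. Without cattle 1, it no longer passed (log2 change -0.91, adjusted p = 0.096).

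Mitochondrially encoded RNA showed no common direction over droplets with 1 to 50 UMIs. It took 1.61, 3.67 and 6.45% of empty UMIs against 1.63, 4.11 and 4.94% in cells, so that cattle 3 alone was higher (mean difference 0.35 ± 1.02 points, exact permutation p = 1). The sign of the mean turned without cattle 3 (-0.23 points) and in droplets with 11 to 50 UMIs (-0.51 points). In droplets with 1 to 10 UMIs the mean difference was 1.90 points, with cattle 2 and 3 higher. In droplets with 1 to 4 UMIs the share was 2.26, 6.35 and 8.76%, above cells in every library. At 21 to 50 UMIs, cattle 3 was at 4.24%, below its cells. Single transcripts did pass the test: 4 of 12 were higher and none lower. ND2, a subunit of complex I, measured 1040, 2883 and 5107 CPM in empty droplets and 373, 2464 and 3674 CPM in cells (0.78 ± 0.12, adjusted p = 3.21e-08). MT-ND3 rose by 0.61 ± 0.12, ND6 by 0.58 ± 0.17 and ATP8 by 0.41 ± 0.14, although ATP8 was higher in cattle 1 only. COX3, the most abundant of them, was at 5966, 10784 and 16324 CPM against 6854, 12909 and 12148 CPM (adjusted p = 0.836). CYTB was not matched in the gene table and was not analysed here.

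Nuclear genes of the respiratory chain also held rises and no falls. Of 92 members, 28 (30.4%) were higher and none lower, with a median log2 change of 0.29. NDUFA4, a small respiratory chain protein, measured 1786, 1513 and 1117 CPM in empty droplets and 1061, 1053 and 939 CPM in cells (0.58 ± 0.12). COX6C rose by 0.44 ± 0.12. COX5B and ATP5I were higher in 3 of 3 libraries without passing. Without cattle 2, 7 members passed. RLE factors gave 47, droplets with 11 to 50 UMIs 48 and droplets with 1 to 10 UMIs none, where the median was -0.07. With RLE factors the higher genes over all genes also grew, to 801, and with 1 to 10 UMIs they were far fewer than in the main window.

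Ribosomal protein transcripts were a smaller part of free RNA. They took 20.2, 29.9 and 29.4% of empty UMIs against 27.3, 32.7 and 31.6% in cells, lower in 3 of 3 libraries (mean difference -4.08 ± 2.66 points, exact permutation p = 0.25, the smallest possible). By gene, 8 of 90 members fell (8.89%) and 2 rose (2.22%), near the 7.44 and 3.54% of all genes. The median log2 change was -0.12, against -0.18 for all genes, many of which had few empty UMIs. Among genes with at least 10 counts over the 3 empty sums, it was -0.06 for ribosomal members, against 0.0006 for all genes. In that setting 3 of 87 members fell and 2 rose. The median of the members turned to 0.10 in droplets within 2-fold of the most common total. RPS2, singled out after its values were seen, fell most: 1746, 1996 and 2710 CPM in empty droplets against 5592, 5073 and 4201 CPM in cells (-1.15 ± 0.12, adjusted p = 1.06e-18). With library size alone 18 members fell, and without cattle 1, 2 or 3 the number was 2, 1 or 3. Both rises were loci of RPS27L, a p53-inducible relative of RPS27. The abundant RPLP1 and RPS27 did not pass the test.

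Immediate early genes, which handling of tissue can switch on, were not enriched in free RNA. Of 19 members, 6 fell and none rose. JUN, a subunit of the AP-1 transcription factor, measured 180, 247 and 391 CPM in empty droplets and 568, 484 and 564 CPM in cells (-0.97 ± 0.13, adjusted p = 4.94e-11). FOS, its partner, was at 335, 344 and 413 CPM against 585, 408 and 460 CPM (adjusted p = 0.078). With DESeq2, 2 immediate early genes fell, and without cattle 1, 2 or 3 the number was 3, 2 or 4. Of 14 heat shock genes, HSPE1 alone passed, with a rise of 0.41 ± 0.13. Of 17 histone and chromatin genes, HMGB1 rose and HMGA1 fell. Of 21 cell division genes, CENPF and KIF23 fell, the latter on 1, 1 and 2 UMIs in the empty sums. Without cattle 2 no heat shock, histone and chromatin or cell division gene passed, and with DESeq2 no cell division gene did. With library size alone, 1 heat shock gene fell and none rose.

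Secreted products were split in direction. Of 27 members, 7 rose and 7 fell. Beside INSL3, TF and INHA, the rises were APOE and APOA1 (apolipoproteins), DEFB119 (a beta-defensin) and PTGDS (prostaglandin D2 synthase). APOA1 measured 10687, 2837 and 1652 CPM in empty droplets against 6329, 1728 and 1106 CPM in cells (0.76 ± 0.12). The falls included IGF2, a growth factor, with 207, 322 and 827 CPM against 774, 712 and 1475 CPM (-1.20 ± 0.13, adjusted p = 2.58e-18). With DESeq2, 9 members rose and 1 fell, and without cattle 1, 2 or 3 the falls were 2, 2 or 3. PTGDS was a small rise (0.36 ± 0.12, adjusted p = 0.024) that did not pass without cattle 1 or without cattle 2 (adjusted p = 0.28 and 0.25) and that turned to -0.03 in droplets with 1 to 10 UMIs. With library size alone it did not pass either (adjusted p = 0.123).

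Haemoglobin RNA was near the limit of detection. It gave 49, 20 and 4 UMIs in the empty droplets, or 0.00483, 0.00122 and 0.000482% of their UMIs, against 0.000661, 0.000456 and 0.000317% in cells. In cattle 1 the embryonic globin HBE1 gave 31 of these UMIs, against 1 UMI in cells of that library. Of these 31 UMIs, 24 lay in droplets with a single UMI and 7 in droplets with 2 to 4 UMIs, each in a droplet of its own, and none in droplets with 5 to 50 UMIs. HBE1 was the only gene to pass among 5 haemoglobin and 8 red blood cell members (adjusted p = 4.58e-07), but it rested on cattle 1, since the empty droplets of cattle 2 held 1 UMI of it and those of cattle 3 none. At a count of 0 in cattle 3, up to 3.61 CPM could not be told from none. With DESeq2 no haemoglobin member passed, with 1 to 100 UMIs 4 of 5 rose, and within 2-fold of the most common total 3 of 5 rose. In these last settings more of all genes rose than in the main window.

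The makeup of RNA changed along the UMI total of the droplets. In cattle 1, the Leydig list took 6.73% of UMIs in droplets with 1 to 4 UMIs, 12.5% at 5 to 10, 12.8% at 11 to 20, 9.68% at 21 to 50, 5.55% at 51 to 100 and 2.36% in the deepest droplets that were not called. In cattle 2 and 3 it was highest at 51 to 100 UMIs, with 3.12 and 3.05%, and it fell to 0.803 and 1.34% in the deepest uncalled droplets. The share was highest in the bin that held the most common total in all 3 libraries. Droplets with 1 to 4 UMIs were closer to cells in cattle 2 and 3, with a Leydig share of 0.987 and 1.13% against 0.677 and 0.846% in cells.

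Macrophage RNA followed another course. It was highest at 51 to 100 UMIs in cattle 1 (1.79%), above 100 and up to 200 UMIs in cattle 2 (1.196%) and above 200 UMIs in cattle 3 (0.593%). In cattle 1, the 21 to 50 UMI droplets had 0.8999%, against 0.289% at 11 to 20 UMIs. In cattle 2 and 3 the share was between 0.144 and 0.310% in every bin up to 100 UMIs, against 0.129 and 0.163% in cells. Droplets with small cells or cell fragments cannot be told apart from free RNA by their UMI total alone. Within 2-fold of the most common total, C1QA stood at 860, 955 and 941 CPM, and 9 of the 16 macrophage members were higher and none lower. In that setting more of all genes passed in both directions than in the main window.

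**Figure D5:**
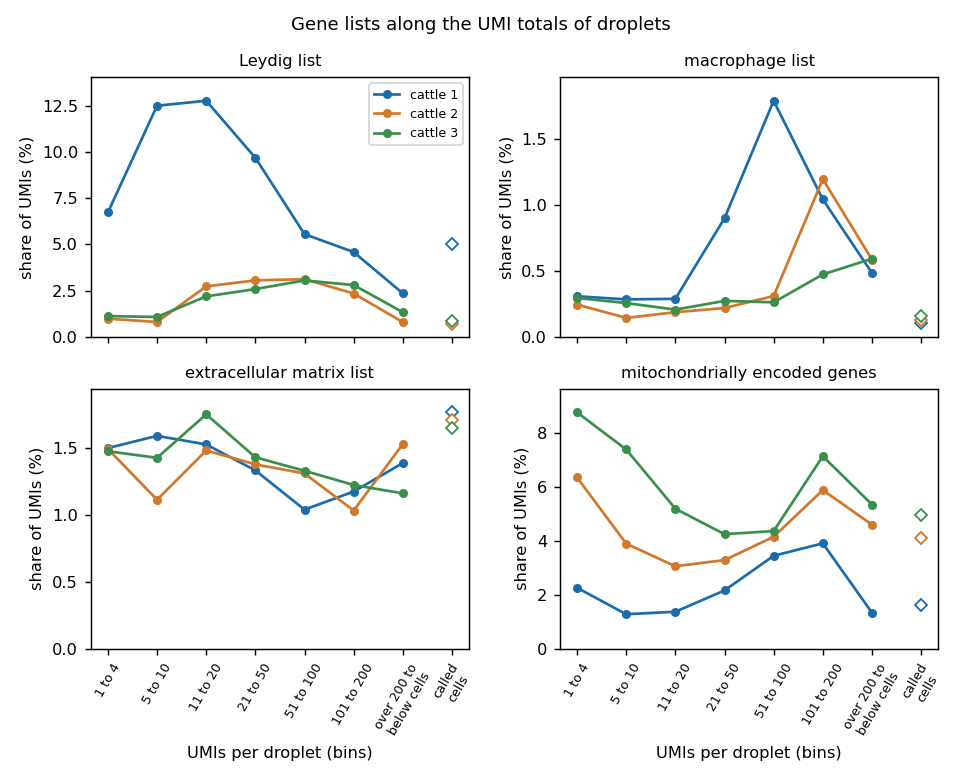
Share of UMIs (%) of 4 gene lists in droplets binned by their UMI total, with called cells as open diamonds at the right. The Leydig list peaks at 12.8% in the 11 to 20 bin of cattle 1 and at 3.12 and 3.05% in the 51 to 100 bin of cattle 2 and 3, while the macrophage list peaks at larger totals.

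INSL3 was also detected in cells of every named class. It had at least 1 UMI in 77.4, 73.0 and 87.0% of droplets within 2-fold of the most common total, whose median totals were 13, 52 and 86 UMIs. Among called cells other than Leydig-like, it was found in 97.2, 80.3 and 99.5% of myoid and stromal-like cells (median 689, 1551 and 4284 UMIs) and in 98.4, 85.6 and 99.8% of Sertoli-like cells (median 1228, 2700 and 6257 UMIs). Its level there was a small part of that in empty droplets: 5.15, 4.71 and 9.10% in myoid and stromal-like, 4.25, 3.76 and 7.35% in Sertoli-like and 5.18, 1.81 and 4.55% in germ-like cells. In lymphocyte-like and macrophage-like cells the values ranged from 4.63 to 9.79%. In UMIs per droplet, however, these cells held more INSL3 than the empty droplets did. Myoid and stromal-like cells held on average 4.36, 1.93 and 7.33 UMIs of INSL3, against 1.57, 1.46 and 2.48 UMIs in droplets within 2-fold of the most common total. Leydig-like cells held 149, 174 and 530 UMIs. Whether the INSL3 of other classes was free RNA, and the part of droplet depth in this difference, were not tested.

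Leydig markers differed in how much of their free level was seen in other classes. In Sertoli-like cells, CYP17A1 stood at 12.9, 5.97 and 9.27% and STAR at 6.77, 4.64 and 7.19% of their level in the empty droplets of the same library, beside 4.25, 3.76 and 7.35% for INSL3. The markers therefore did not keep 1 ratio between free RNA and the other classes. HSD3B was at 17.1, 29.99 and 33.8% in myoid and stromal-like cells and at 6.11, 4.43 and 6.22% in Sertoli-like cells. For macrophage genes, C1QA stood at 9.85, 10.8 and 15.2% of the empty level in Sertoli-like cells and at 8.48, 11.9 and 14.1% in Leydig-like cells. It was found in 14.3, 12.1 and 42.8% of Sertoli-like cells and in 59.8, 68.8 and 88.0% of macrophage-like cells. CCL5 stood at 1653, 992 and 1122% of its empty level in lymphocyte-like cells and at 25.6, 5.34 and 9.17% in Sertoli-like cells.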

How the data were processed

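The authors deposited raw UMI counts per gene and droplet, made with Cell Ranger 2.1.0 on build ARS-UCD1.2 per the labels. Counts were summed over droplets with 1 to 50 UMIs and over called cells of 3 cattle libraries; a cell had at least 1/10 of the 99th percentile UMI total of 3000 expected cells. Replicate numbers follow accession order. The pig libraries were not used here. Members and gene lists were chosen with earlier results of these data known. The 6 sums were filtered to genes that reached 10 counts in total and tested with edgeR 4.0.16 (TMM, quasi-likelihood, library as block) in R 4.3.3, with Benjamini-Hochberg adjustment at 0.05, after a test on simulated data. The pairing comes from the shared library: deviations of the 2 sums of a library correlated at 0.815, 0.708 and 0.751. DESeq2 1.42.0, other scalings, filters, windows and left-out libraries were alternatives.

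Called cells with at least 200 genes, less the 100, 613 and 308 with the highest doublet scores (0.8% per 1000 cells), were clustered with scanpy 1.11.5 (2000 variable genes, 30 components, 15 neighbours, Leiden resolution 1) and classes named from fixed markers. Class shares of the empty sums were estimated by maximum likelihood, with non-negative least squares as an alternative. Named genes were the 10 largest rises and falls with a symbol, the same direction in 3 libraries, at least 30 UMIs and a mean of 20 CPM in the higher group, the 10 most abundant genes in empty droplets, mitochondrial and haemoglobin genes, the 2 to 4 most abundant members of each list, and the markers DDX4, FSHR, LHCGR, TCF21, AIF1 and CCL5. Other names were chosen after their values were seen. No member of a list of nuclear-retained RNAs was matched. Intervals and limits at a count of 0 (3 UMIs) cover counting error only.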

Additional observations from a re-analysis of the deposited data

Results flagged for a closer look

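Droplets with more than 100 and up to 200 UMIs entered neither sum. The macrophage list took 1.04, 1.196 and 0.474% of their UMIs in cattle 1, 2 and 3, above the 0.108, 0.129 and 0.163% in called cells. Mitochondrially encoded genes took 3.90, 5.88 and 7.13% of their UMIs, above the 1.63, 4.11 and 4.94% in called cells. Both were higher in 3 of 3 libraries, and the difference was not tested.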

How the results depend on the processing

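Higher genes numbered 508 and lower genes 1069. Without the replicate block, 0 genes were higher and 0 lower. Higher genes were 337 with library size alone, 801 with RLE factors, 34 in droplets with 1 to 10 UMIs, 1629 with 1 to 100 UMIs, 338 against cells with at least 500 UMIs and 1748 within 2-fold of the most common total, a setting added after seeing the data. Lower genes were 285 with DESeq2, 686 with at least 10 empty counts, 55 with 1 to 10 UMIs, 2069 with 1 to 100 UMIs, 540 with thinned cell sums and 2331 within 2-fold of the most common total. Leaving out 1 library gave 116 to 595 higher and 205 to 698 lower genes. The mitochondrial difference (0.35 points) turned to -0.024 with 1 to 100 UMIs, -0.51 with 11 to 50 and -0.012 within 2-fold of the most common total. It was 1.90 points with 1 to 10 UMIs and ranged from -0.23 to 0.74 with 1 library left out. The B and plasma-like difference turned to -0.060 with least squares, -0.014 with a pooled reference and -0.013 without ribosomal genes, and ranged from -0.024 to 0.037 with 1 library left out. The Sertoli-like difference turned to -0.63 with 1 to 10 UMIs. PTGDS turned to -0.031 there, and HBE1 to -0.29 within 2-fold of the most common total. The cause was not tested. The other 146 values of the main comparisons kept their direction, and the counts among them stayed near the reported count, but the class differences varied in size: over all settings the Leydig-like one ran from 9.87 to 24.1 points, the macrophage-like one from 2.65 to 5.05, the germ-like one from -7.23 to -2.60, the lymphocyte-like one from -7.31 to -0.34 and the myoid and stromal-like one from -18.7 to -9.36. For single genes, 397 values did so and 47 no longer passed, among them all 25 genes followed when the replicate block was left out. Leaving out barcodes 1 base from a cell barcode removed none and gave no separate value. Genes under 3 UMIs in the empty sums are limited by depth.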
